A study of Mus musculus with 2 samples.

Results

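The interferon response genes described here are 37 genes of the 27998 in the mouse annotation of the deposited matrices, taken by symbol and all found in both libraries. They were divided by the interferon that is best known to induce them. The first list holds 27 type I targets, genes such as Ifit1, Isg15, Oas2, Mx1 and Rsad2 that respond to interferon-alpha and interferon-beta. The second holds 10 Gbp and Irg type targets, which respond mainly to interferon-gamma: 4 guanylate-binding proteins (Gbp2, Gbp3, Gbp5, Gbp7), 3 immunity-related GTPases (Irgm1, Igtp, Iigp1), the transcription factor Irf1 and the chemokines Cxcl9 and Cxcl10. The lists are not exclusive, since many members answer to both kinds of interferon. Cxcl10 is the clearest case and was also counted with the type I targets as an alternative.

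The study profiled single cells of the carotid artery of male C57BL/6J mice, 8 weeks old, in a wire injury model of intimal hyperplasia, the thickening of the inner vessel wall that follows loss of the endothelium. A guide wire stripped the endothelium and the external carotid artery was tied off. Vessels were taken 14 days (2 weeks) or 28 days (4 weeks) later, with 18 mice stated for each time. The adventitial layer was dissected from media and neointima, tissue was digested with papain, and live nucleated cells were sorted and loaded on a droplet platform. Each time point is 1 library of pooled animals whose cells cannot be traced to a mouse, and no uninjured artery was analysed here. The labels are inconsistent on the vessel, naming the carotid artery as tissue but aortic grafts in the dissection text, and both a left and a right carotid in the surgery text.

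Interferons are secreted alarm proteins of antiviral defence. Type I interferons bind a receptor made of Ifnar1 and Ifnar2 and act through a complex, with Stat2 and Irf9 among its parts, that binds the interferon-stimulated response element, whereas interferon-gamma binds Ifngr1 and Ifngr2 and acts mainly through the gamma-activated site. In arteries the response is known in macrophages, endothelial cells and the mesenchymal cells of the wall, where it can follow viral or self nucleic acids as well as interferon-gamma from lymphocytes.

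To show what the members share in sequence, the 250 bases before the first start site listed by RefSeq (GRCm38.p6) are given for 6 members whose values the results turn on: 3 type I targets and 3 of the Gbp and Irg type. Each is written 5' to 3' on the gene's own strand in lower case. Capitals mark every match to GAAA, any 2 bases and GAAA, a core of the interferon-stimulated response element searched on both strands (so also TTTC, any 2 bases and TTTC), or to TTCNNNGAA, the gamma-activated site, which reads the same on both strands.
Ifit1 (chr19:34640639-34640888, plus strand): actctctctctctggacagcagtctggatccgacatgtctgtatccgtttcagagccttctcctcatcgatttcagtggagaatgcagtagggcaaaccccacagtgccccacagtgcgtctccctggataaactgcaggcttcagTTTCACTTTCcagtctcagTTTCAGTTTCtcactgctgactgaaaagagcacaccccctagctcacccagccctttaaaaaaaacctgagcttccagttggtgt
Isg15 (chr4:156200819-156201068, minus strand): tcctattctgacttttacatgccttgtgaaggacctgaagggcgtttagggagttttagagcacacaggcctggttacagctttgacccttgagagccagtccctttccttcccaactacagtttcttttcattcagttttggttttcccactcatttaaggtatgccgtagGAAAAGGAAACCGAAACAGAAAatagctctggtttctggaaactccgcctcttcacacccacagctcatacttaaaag
Irf7 (chr7:141266425-141266674, minus strand): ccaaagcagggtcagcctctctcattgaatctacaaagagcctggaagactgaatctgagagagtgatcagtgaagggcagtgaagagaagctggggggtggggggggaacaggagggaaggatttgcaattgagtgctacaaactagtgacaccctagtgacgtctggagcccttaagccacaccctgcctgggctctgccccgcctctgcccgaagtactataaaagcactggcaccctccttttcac
Gbp2 (chr3:142620413-142620662, plus strand): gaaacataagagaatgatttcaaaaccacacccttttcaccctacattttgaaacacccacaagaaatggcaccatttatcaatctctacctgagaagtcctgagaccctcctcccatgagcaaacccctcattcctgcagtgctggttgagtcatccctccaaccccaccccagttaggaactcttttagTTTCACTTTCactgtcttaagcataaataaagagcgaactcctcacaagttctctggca
Irf1 (chr11:53769764-53770013, plus strand): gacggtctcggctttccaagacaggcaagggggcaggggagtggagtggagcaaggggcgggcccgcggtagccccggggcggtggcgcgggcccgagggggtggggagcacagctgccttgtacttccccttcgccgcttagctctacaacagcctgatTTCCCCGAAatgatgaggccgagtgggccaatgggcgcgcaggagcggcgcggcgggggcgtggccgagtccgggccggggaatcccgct
Cxcl9 (chr5:92328080-92328329, minus strand): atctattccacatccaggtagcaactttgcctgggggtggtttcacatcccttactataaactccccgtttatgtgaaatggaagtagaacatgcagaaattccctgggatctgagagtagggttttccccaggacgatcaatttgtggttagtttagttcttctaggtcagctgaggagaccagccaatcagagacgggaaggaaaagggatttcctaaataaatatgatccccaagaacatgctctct

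Ifit1 held 2 matches to the first motif, which began 104 and 85 bases before the start site, and Isg15 held 3 overlapping matches at 78, 72 and 66 bases. Gbp2 held 1 at 59 bases. Irf1 held no match to that core and 1 to TTCNNNGAA, 90 bases before the start. The stretches printed for Irf7 and Cxcl9 held neither motif. No match says only that these letters are not in this stretch.

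Promoter windows were matched for 29 of the 37 members (34 windows, each of 300 bases: 250 before and 50 after the start). Oas2, Mx1, Parp14, Rtp4, Usp18, Zbp1, Ifi204 and Iigp1 were not matched. The core of the interferon-stimulated response element was found in 18 of the 29 genes, 11 of 20 type I targets and 7 of 9 Gbp and Irg type targets. It was in 55.9% of the members' windows and in 3.44% of all 32851 windows of the table. TTCNNNGAA was found in 8 genes (Ifit2, Oas1a, Bst2, Ifi35, Gbp5, Gbp7, Igtp and Irf1). It was in 23.5% of the windows of all matched members and in 8.30% of all windows. The motif of the gamma-activated site was held by 17.4% of type I windows and 36.4% of Gbp and Irg type windows. In Bst2 the matches to both motifs overlapped.

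The libraries held 5864 barcodes and 78773018 unique molecular identifiers (UMIs, each counting 1 captured RNA molecule) at 2 weeks and 8565 barcodes and 83753250 UMIs at 4 weeks. After removal of shallow cells, cells rich in mitochondrial RNA and doublets, 5169 and 7442 cells were kept, with medians of 11776 and 8716 UMIs. The libraries shared 8 barcodes, 6 of them among kept cells. Cells fell into 31 clusters, of which 24 were named "-like" from marker genes, and the unnamed clusters held 388 and 792 cells. The largest class at 2 weeks was thymocyte-like (1644 and 828 cells, led by genes such as Rag1 and Ptcra), and 1448 B cell-like cells at 4 weeks faced 43 at 2 weeks, so the libraries held lymphoid cells beside those of a vessel wall.

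Levels are UMIs of the gene over all UMIs of the class, scaled to a class total of 1000000 (CPM), and ratios are log2 of the level at 4 weeks over that at 2 weeks. With 1 library at each time there is no replicate check and no test. All ranges in brackets are 95% exact intervals that cover counting error only, and the bracket beside a list's median gives the medians of its members' lower and upper bounds. A member is counted as past 2-fold where its log2 ratio was at most -1 or at least 1 over at least 20 UMIs. The 8 classes of 50 or more cells in both libraries were compared, and 6 smaller ones are described by level.

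Every class held UMIs of both lists, and the summed type I level at 2 weeks ran from 318 to 5521 CPM over the classes. Plasmacytoid dendritic cell-like cells, of the type known as the professional source of type I interferon, held the highest summed type I level, 5521 CPM at 2 weeks and 5965 at 4 weeks. Only 14 and 20 such cells were present. That sum was mostly Bst2 (tetherin, which holds budding viruses at the cell surface and is a known surface marker of these cells), at 4454 and 4965 CPM. Irf7, which drives interferon-alpha genes, stood at 211 and 204 CPM there, and Trim30a, a ubiquitin ligase, at 174 and 262 CPM. Both were highest in this class at both times. By contrast these cells had no UMI of Ifit1 in either library, against a limit of 3 counts, or 18.6 and 13.6 CPM. Without Bst2 the type I sum was 1067 and 1000 CPM here, below the 1468 and 1100 of macrophage-like cells. All 13 and 20 plasmacytoid dendritic cell-like cells deep enough to compare at equal depth held at least 5 type I UMIs. That count includes Bst2, and the share without it was not computed.

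Macrophage-like cells came next at 2 weeks, with a summed type I level of 1851 [1830 to 1873] CPM at 2 weeks and 1413 [1370 to 1457] at 4 weeks. Fibroblast-like cells held 1376 [1361 to 1392] and 1020 [1010 to 1031] CPM. The sum was 1402 and 917 CPM in dendritic cell-like and 1181 and 893 in NK cell-like cells. The intervals of the 2 times did not overlap in any of these. The sum was also lower at 4 weeks in endothelial (1791 and 1244 CPM), B cell (1001 and 508) and interleukin-17 T cell-like cells (923 and 679). In the endothelial cell-like class 1 cell held 16.1% and 24.1% of the type I UMIs at 2 and 4 weeks. At equal depth the share of endothelial cell-like cells with at least 5 type I UMIs was not lower, at 29.3% [16.1 to 45.5] and 34.8% [16.4 to 57.3]. At 2 weeks 1 cell held 18.2% of the B cell-like type I UMIs, and 277 of the B cell-like cells at 4 weeks lay in cluster 15, at 189 CPM. In the other B cell-like cluster the sum was 1214 and 777 CPM. It was higher at 4 weeks in neutrophil-like cells (1237 and 1733), where only 29 cells were present and 1 of them held 21.4% of the type I UMIs, and in T cell-like cells (689 and 793). Thymocyte-like cells were low and alike at both times (340 and 343), and smooth muscle cell-like cells were the lowest (318 and 241).

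The Gbp and Irg type targets had another order. Endothelial cell-like cells were highest, with a summed level of 1502 CPM at 2 weeks and 958 at 4 weeks, from 41 and 24 cells. Without the richest cell of each library the levels were 1333 and 725 CPM. At equal depth the share of these cells with at least 5 Gbp and Irg type UMIs was not lower, at 22.0% [10.6 to 37.6] and 26.1% [10.2 to 48.4]. Fibroblast-like cells followed at 2 weeks with 736 [725 to 747] CPM, against 467 [460 to 474] at 4 weeks. Macrophage-like cells held 593 and 365 CPM, dendritic cell-like cells 528 and 379, those of the interleukin-17 T cell-like class 521 and 304 and NK cell-like ones 491 and 292. Plasmacytoid dendritic cell-like cells, first for type I targets through Bst2, were low here, with 279 and 163 CPM. The neutrophil-like level of 723 CPM at 4 weeks, against 446, came to 54.1% from 1 cell. Of the Gbp and Irg type targets, 5 were highest at 2 weeks in endothelial cell-like cells (Gbp3, Gbp5, Iigp1, Irf1 and Cxcl10), while Cxcl9, which draws activated T cells, was highest in fibroblast-like cells at both times. How many of all genes were highest in the endothelial cell-like class was not computed.

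**Figure D1:**
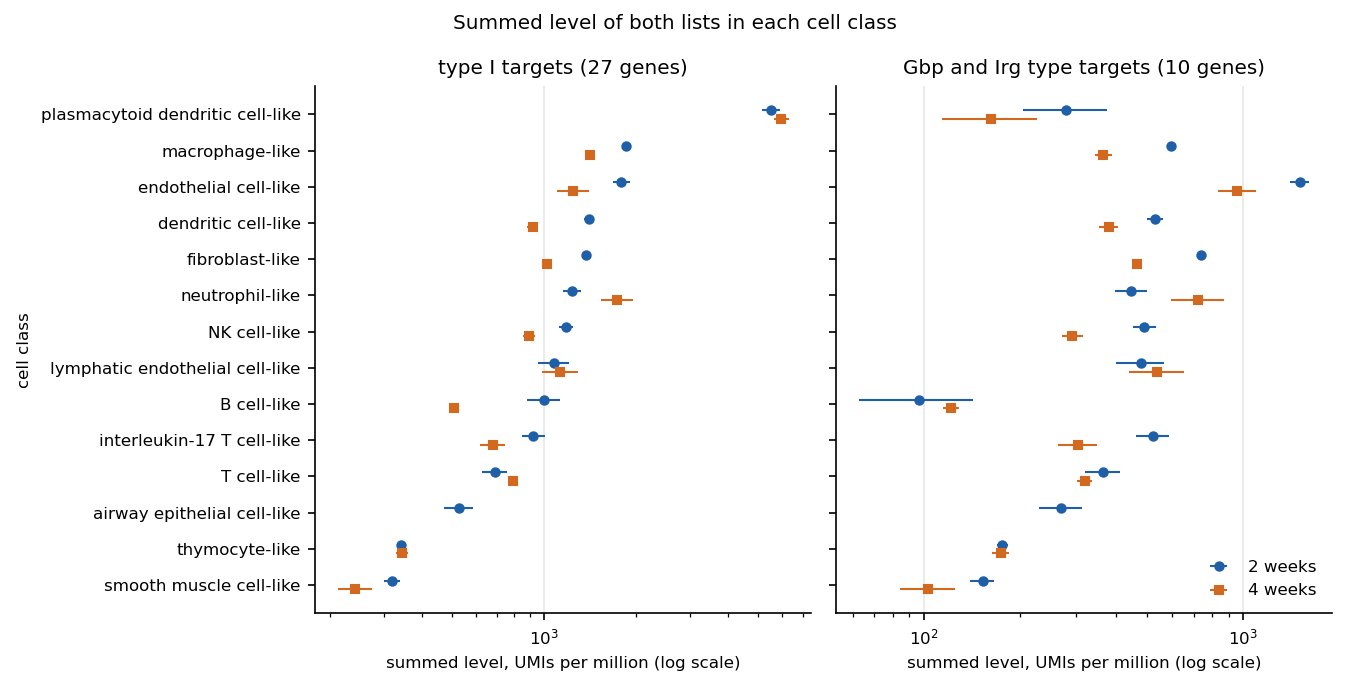
Summed level of the 27 type I targets (left) and the 10 Gbp and Irg type targets (right) in each class, in CPM on a log axis, with circles for 2 weeks and squares for 4 weeks and bars for the 95% Poisson interval. Type I levels are highest in plasmacytoid dendritic cell-like cells (5521 and 5965 CPM) and Gbp and Irg type levels in endothelial cell-like cells (1502 and 958 CPM).

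Single type I targets were highest in different classes. At 2 weeks 6 of the 27 were highest in neutrophil-like cells (Oas3, Oasl1, Rsad2, Rtp4, Isg15 and Ifih1), 5 in plasmacytoid dendritic cell-like cells and 4 in macrophage-like cells (Oas1a, Oas2, Oasl2 and Ifi204). At 4 weeks 12 of the 27 were highest in neutrophil-like cells, a class of 29 cells. The share of all genes highest in each class was not computed, so these counts only describe where the members' levels peaked. Rsad2 (viperin, an antiviral enzyme) stood at 216 and 124 CPM in neutrophil-like cells at 2 and 4 weeks. Isg15, a ubiquitin-like protein that is joined to others during the response, stood there at 104 and 189 CPM. Mx1, an antiviral GTPase, had its highest level at both times in the dendritic cell-like class. C57BL mice are known to carry a defective Mx1 gene, so its RNA need not give a working protein. Zbp1, a sensor of unusual nucleic acids, and Ifi203, of a DNA-binding family, were highest in NK cell-like cells at 2 weeks.

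**Figure D2:**
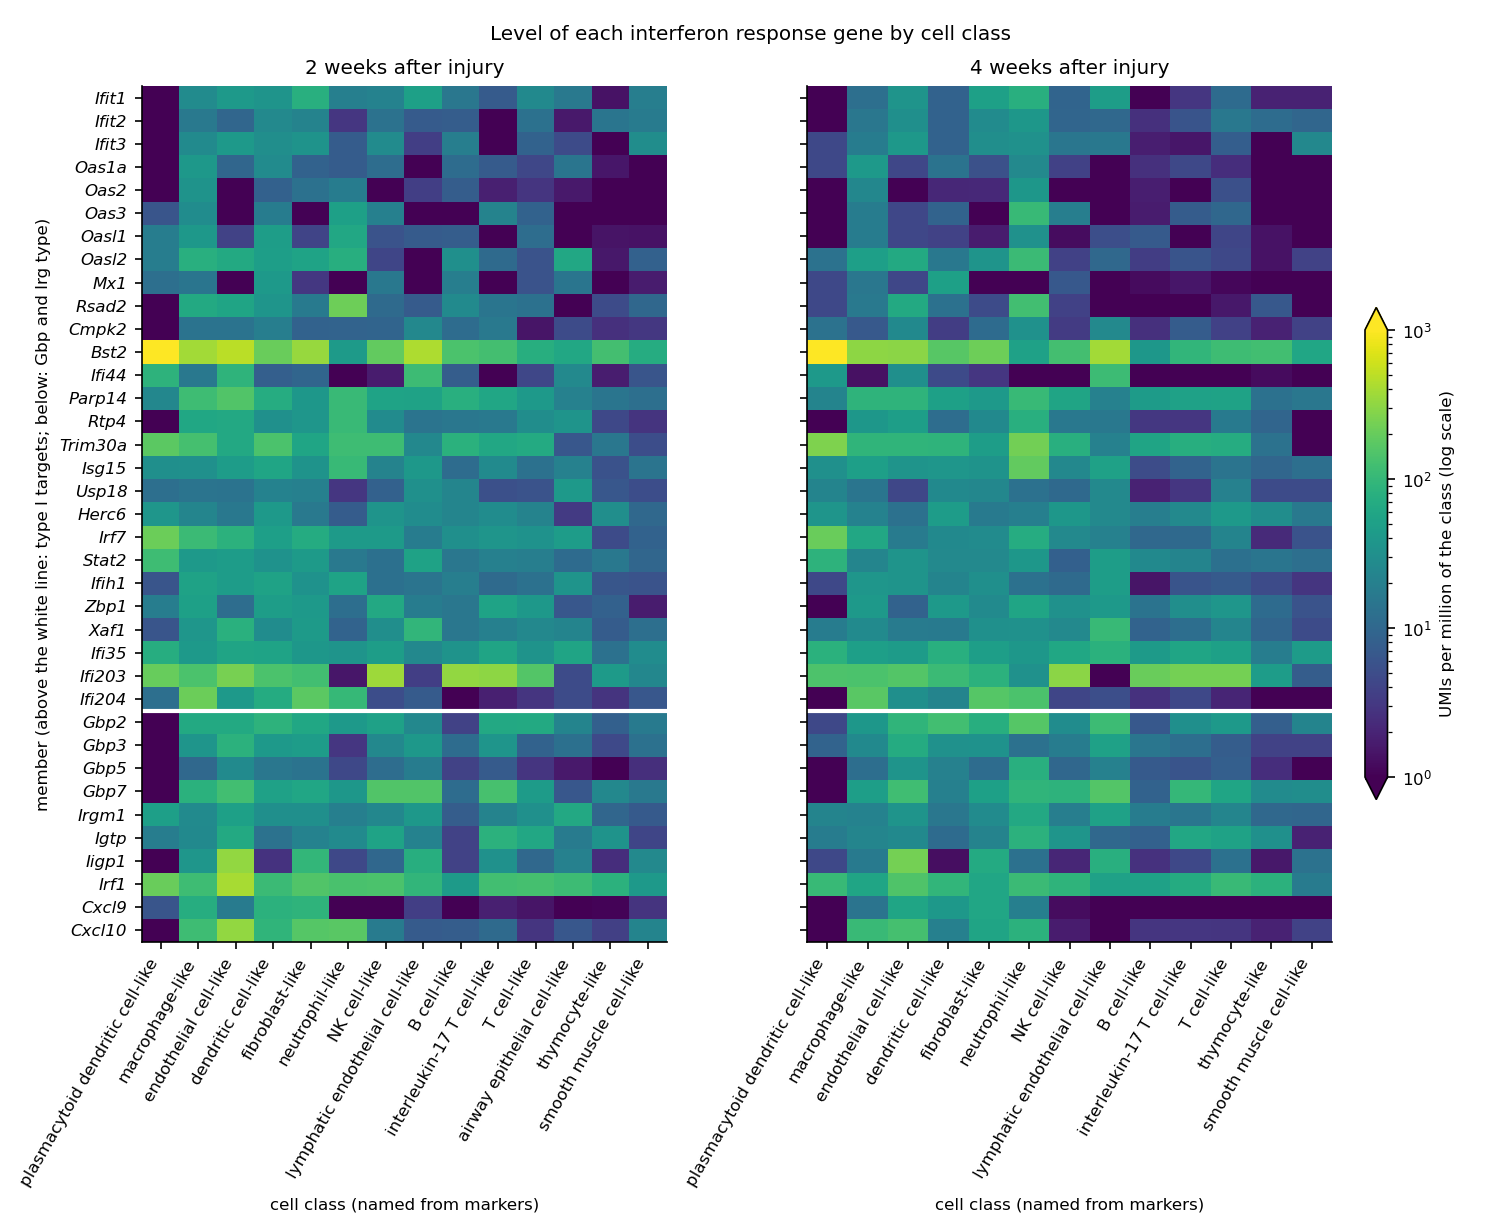
Level of each of the 37 members (rows, type I targets above the white line and Gbp and Irg type targets below) in each class (columns), in CPM on a log colour scale, at 2 weeks (left) and 4 weeks (right, without the airway class, which had 1 cell). The Bst2 entries of plasmacytoid dendritic cell-like cells (4454 and 4965 CPM) exceed the top of the colour scale, and the Cxcl9 row is dark in most lymphoid classes.

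The ligands were found in few cells. Ifng, which codes for interferon-gamma, was found in NK cell-like cells, with 137 [117 to 160] CPM at 2 weeks and 82.0 [70.9 to 94.3] at 4 weeks, a log2 ratio of -0.74 [-1.05 to -0.43]. The share of NK cell-like cells with an Ifng UMI was 47.6% at 2 weeks and 27.1% at 4 weeks, at median depths of 7396 and 7718 UMIs, and at equal depth 26.6% [19.5 to 34.6] and 16.3% [12.2 to 21.1]. In fibroblast-like cells, which should lack the gene, it was 0.317% and 0.146% at 22990 and 12950 UMIs. Interleukin-17 T cell-like cells had 15 UMIs at 2 weeks (27.3 CPM), 66.7% of them in 1 cell, and none at 4 weeks, where 3 counts would be 4.51 CPM. Ifnb1, which codes for interferon-beta, had 17 and 3 UMIs in macrophage-like cells (1.09 and 1.04 CPM) and 21 and 3 over all classes. Ifna1, Ifna2, Ifna4, Ifna5, Ifne, Ifnl2 and Ifnl3 had no UMI in any class, and Ifnk had 0 and 1. Transcripts of type I interferons were thus few at this depth in all 14 classes.

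Of the receptors and inhibitors, Ifngr1 and Socs3 are given here. In fibroblast-like cells Ifngr1, a chain of the interferon-gamma receptor, had 91.9 and 144 CPM, a log2 ratio of 0.65. In NK cell-like cells it had 759 and 358 CPM (-1.08), and in macrophage-like cells 274 and 288 (0.07). The Ifngr1 ratios thus did not share a direction across these classes. Socs3, an inhibitor of cytokine signalling that many cytokines induce, was lower in fibroblast-like (712 and 275, -1.37) and dendritic cell-like cells (328 and 102, -1.69). It was the lowest of the 5 inhibitors looked at in both classes. Of these, 2 lay above 0 in fibroblast-like cells (Ptpn6 highest, 0.98) and 3 in dendritic cell-like cells (Socs1 highest, 0.76).

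Fibroblast-like cells had the firmest counts, from 947 cells at 2 weeks and 2734 at 4 weeks. Irf1, Irf7, Cxcl10 and Oas2 were lower at 4 weeks, while Gbp2 was slightly higher. Isg15 was level over the class and above 0 within each of its 4 clusters, with 3 intervals above 0. Both lists lay below the median of all genes, and the difference was uneven within each list. Of the 37 members, 9 were lower past 2-fold and none higher. Over all 13699 genes with at least 20 UMIs, 5.33% were lower and 2.28% higher past the same fold. The median log2 ratio was -0.54 [-0.65 to -0.38] for the 27 type I targets, of which 20 lay below 0, and -0.36 [-0.52 to -0.23] for the 10 Gbp and Irg type targets, of which 8 lay below 0. The median of all genes was 0.01. With the 7 GTPases alone the second list's median was -0.23.

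Oas2, which makes the small messenger that activates RNase L, stood at 13.0 and 2.24 CPM, a log2 ratio of -2.54 [-2.91 to -2.18]. With each cell thinned to 2700 UMIs, the share of fibroblast-like cells with a UMI was 3.52% [2.44 to 4.91] at 2 weeks and 0.482% [0.257 to 0.823] at 4 weeks (18.4% and 2.63% before thinning), beside 0.298% of thymocyte-like cells at 2 weeks. All 5 OAS family members were below 0, with a median of -1.29, although Oas3 and Oasl1 were below a 10th of the class that held most, where free RNA from other cells cannot be told apart from expression. Oas1a and Oasl2 stood at -0.65 and -0.61.

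The transcription factors of the response were lower in these cells. Irf7 stood at 70.3 and 27.9 CPM, -1.33 [-1.45 to -1.22]. Stat2, a part of the type I complex, stood at 43.2 and 25.5 CPM, -0.76 [-0.89 to -0.63]. Irf1 stood at 155 and 60.2 CPM, -1.37 [-1.45 to -1.29]. Thinned to 2700 UMIs, 27.4% of cells held an Irf1 UMI at 2 weeks and 13.2% at 4 weeks (68.7% and 42.0% before thinning). None of the 3 intervals reached -0.5, and no single cell held more than 3.49% of the UMIs.

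The IFIT and ISG15 groups were split. Ifit1, of a family that binds viral RNA caps, stood at 78.9 and 50.3 CPM (-0.65), Ifit3 at 34.5 and 30.4 (-0.18) and Ifit2 at 22.2 and 27.7 (0.32). The Ifit3 difference came from 1 cell at 2 weeks with 12.2% of its UMIs, and without the top cells the ratio was -0.04. Reads of Ifit3 may be shared with its near copy Ifit3b. Isg15 stood at 34.4 and 34.8 CPM, 0.02 [-0.11 to 0.15], and the protease that removes it, Usp18, at 20.5 and 24.3 (0.25). Its ligase Herc6 was at 0.08. All 3 members of the ISG15 system thus lay at or slightly above 0 over the class while the OAS family lay below it.

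Bst2 stood at 344 and 219 CPM, -0.65 [-0.69 to -0.60]. Its level was under a 10th of that in plasmacytoid dendritic cell-like cells. Mx1, Rsad2 and Ifi44 were also past 2-fold lower (-2.48, -1.79 and -1.66), again at under a 10th of their highest class, and 1 cell held 41.2% of the Rsad2 UMIs at 2 weeks. Cmpk2, a mitochondrial kinase encoded beside Rsad2, was not lower, at 8.66 and 11.2 CPM (0.38). Ifi35 stood at 0.32, Parp14 at 0.09 and Ifih1, a sensor of double-stranded RNA, at -0.13.

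Among the Gbp and Irg type targets the GTPases differed little. Gbp2 stood at 61.4 and 76.8 CPM, 0.32 [0.23 to 0.42], Gbp3 at 45.8 and 33.5 (-0.45) and Gbp7 at 58.9 and 50.3 (-0.23). Iigp1, which attacks the membranes around intracellular parasites, stood at 95.8 and 68.4 CPM (-0.49). Irgm1 and Igtp were at -0.16 and 0.05. The larger differences were in the remaining 3 members, whose median was -1.37. Cxcl10 stood at 162 and 56.6 CPM, -1.52 [-1.60 to -1.44]. At equal depth 13.2% [11.1 to 15.6] and 7.12% [6.18 to 8.16] of fibroblast-like cells held a UMI (27.1% and 14.5% before thinning), and 1.12% and 0.412% of thymocyte-like cells.

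Cxcl9 in fibroblast-like cells was unlike the other members. Its level was 89.6 CPM at 2 weeks and 60.1 at 4 weeks, -0.58 [-0.66 to -0.49], but at equal depth it was found in 9.39% [7.60 to 11.4] of cells at 2 weeks and 2.00% [1.51 to 2.61] at 4 weeks (24.9% and 5.49% before thinning). In thymocyte-like cells, which should lack it, the share was 0.596% at 2 weeks. At 4 weeks 1 cell held 25.5% of the UMIs, and without the top cell of each library the ratio was -0.88. Fewer cells with the transcript and a few cells with very much of it thus lay behind a level that differed modestly.

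The 12 immediate early genes of a list of dissociation and stress responses were all lower at 4 weeks in fibroblast-like cells (median -0.55), and the median depth was 22990 UMIs at 2 weeks and 12950 at 4 weeks. Their part in the result was not tested. Of 26 other type I targets that are not members, 21 had enough UMIs and a median of -0.16. Of 15 other Gbp and Irg type genes, 10 did, with a median of -0.46 and 3 lower past 2-fold, the lowest being Serpina3g at -2.48. The members' type I median was thus lower than that of the other type I genes, and the members were proposed with results of these data in view.

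Different clusters made up most of the fibroblast-like class at each time, so the members were also compared within clusters. Cluster 7 (led by Ptx3, Tnfaip6 and Has1) held 452 of the 947 cells at 2 weeks and 125 of 2734 at 4 weeks. Clusters 0, 4 and 5 held 1286, 738 and 585 cells at 4 weeks. Within clusters the type I median was -0.29, -0.14, -0.45 and -0.43 in clusters 0, 4, 5 and 7, with a range that covered 0 in cluster 4 (-0.48 to 0.20). The Gbp and Irg type median was -0.09 [-0.37 to 0.20], -0.21 [-0.51 to 0.14], -0.32 [-0.71 to 0.15] and -0.08 [-0.37 to 0.13], and all 4 ranges covered 0. With the 4 clusters weighted equally the medians were -0.37 and -0.18, less far below 0 than in the class as a whole.

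In each of the 4 fibroblast-like clusters 8 of the 34 members with 20 UMIs in all of them were lower with an interval below 0. Over all genes with as many UMIs the share was 2.63%. The 8 were Ifit1, Oas2, Bst2, Irf7, Stat2, Ifi203, Irf1 and Cxcl10. Oas2 and Irf1 were past 2-fold in all 4. Irf1 stood at -1.52, -1.12, -1.38 and -1.06 in clusters 0, 4, 5 and 7. Irf7 was uneven, at -1.50, -0.72, -1.51 and -0.43. No member was higher with its interval above 0 in all 4. Gbp2 lay above 0 in each, at 0.29, 0.56, 0.21 and 0.40, with 3 intervals above 0. So did Isg15, at 0.81, 0.40, 0.05 and 0.72, also with 3, although its value for the class was 0.02. At 4 weeks 1 cell held 46.7% of the Isg15 UMIs of cluster 7. Ifi35 lay above 0 in all 4 with 1 interval above 0. For Cxcl9 the class value hid opposite signs, with 0.40, 1.52 and 0.35 in clusters 0, 4 and 7 and -1.70 in cluster 5. At 4 weeks 1 cell held between 57.1% and 84.5% of the Cxcl9 UMIs in each of these clusters, so the values above 0 lean on single cells. In cluster 5 a rich cell at 4 weeks raises the ratio, so the value below 0 does not come from that cell. At 2 weeks the cluster had 97 cells, and 1 of them held 13.0% of its Gbp and Irg type UMIs. Whether rich cells at 2 weeks lowered the Cxcl9 ratio was not tested.

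Macrophage-like cells (1101 and 263) showed lower levels at 4 weeks over most of both lists, with Rsad2, Ifit1, Oasl1, Irf1, Iigp1 and Cxcl9 past 2-fold and Isg15 higher. Of the 37 members, 8 were lower past 2-fold and none higher, against 4.00% of all genes lower and 3.17% higher. The type I median was -0.49 [-0.79 to -0.19], with 21 of 27 below 0, and the Gbp and Irg type median was -0.63 [-0.94 to -0.32]. The median of all genes was 0.02. The 12 immediate early genes were again all lower (median -0.76), and the depth was 13460 and 10122 UMIs. Their part in the result was not tested.

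Among the effectors, Rsad2 stood at 66.4 and 16.2 CPM, -2.03 [-2.49 to -1.61], and Ifit1 at 27.9 and 12.4, -1.17 [-1.70 to -0.67]. Over 6 other settings the Rsad2 ratio ran from -2.24 to -0.97, so it was not past 2-fold in all of them. Oasl1, which restrains the translation of Irf7, stood at 39.9 and 18.3, -1.12 [-1.56 to -0.72]. A single cell held 25.5% of the Rsad2 UMIs and 24.5% of the Oasl1 UMIs at 4 weeks. Ifi44 was the lowest ratio, at 15.9 and 1.38 CPM, -3.52 [-5.41 to -2.15], from 4 UMIs at 4 weeks. Oas1a, highest in this class, was level at 39.6 and 41.1 CPM (0.05). The OAS family was therefore not uniform here, with a median of -0.65 and Oasl2 and Oas3 both at -0.65.

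Irf7 stood at 110 and 63.5 CPM (-0.79), Bst2 at 383 and 313 (-0.29) and Ifit3 at 27.2 and 18.3 (-0.57). Isg15 was higher at 4 weeks, at 31.9 and 49.7 CPM, 0.64 [0.36 to 0.91]. A single cell held 25.0% of its UMIs at 4 weeks, and without the top cells the ratio was 0.37. Isg15 thus did not share the direction of Ifit1 and Irf7 in these cells.

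Gbp2 stood at 66.8 and 38.3 CPM in macrophage-like cells, -0.80 [-1.10 to -0.52], on the other side of 0 from fibroblast-like cells. Irf1 stood at 116 and 57.7, -1.01 [-1.25 to -0.78], and Iigp1 at 37.2 and 17.3 (-1.11). Cxcl10 was level at 117 and 107 CPM, -0.13 [-0.31 to 0.05], although in fibroblast-like cells it was past 2-fold lower. A single macrophage-like cell held 19.3% of its UMIs at 4 weeks. Cxcl10 and Iigp1 were each lower in 1 of the 2 clusters of the class and higher in the other. Cxcl9 stood at 73.2 and 14.2 CPM, -2.37 [-2.86 to -1.92], while the share of cells with a UMI at equal depth was 2.97% [2.04 to 4.17] and 1.95% [0.635 to 4.48] (5.36% and 4.56% before thinning). A single cell held 43.9% of its UMIs at 4 weeks, and without the top cells the ratio was -2.94. The intervals of the shares overlap, while those of the levels were far apart.

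The class has 2 clusters, and the medians of both lists lay below 0 in each. Cluster 3 (led by Folr2, Fcna and Cd163, known in resident macrophages) had medians of -0.46 [-0.86 to -0.15] for type I and -0.57 [-0.92 to -0.23] for Gbp and Irg type targets. Cluster 9 (led by Saa3, Arg1 and Msr1) had -0.41 [-0.90 to 0.17] and -0.56 [-1.17 to 0.12], and both of its ranges covered 0. In both, 8 of the 37 members were lower with intervals below 0, where 4.42% of all genes were. They were Ifit1, Rsad2, Ifi44, Rtp4, Irf7, Gbp7, Irf1 and Cxcl9. Irf1 stood at -1.16 in cluster 3 and -0.62 in cluster 9, and Gbp2 at -1.40 and -0.20.

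**Figure D3:**
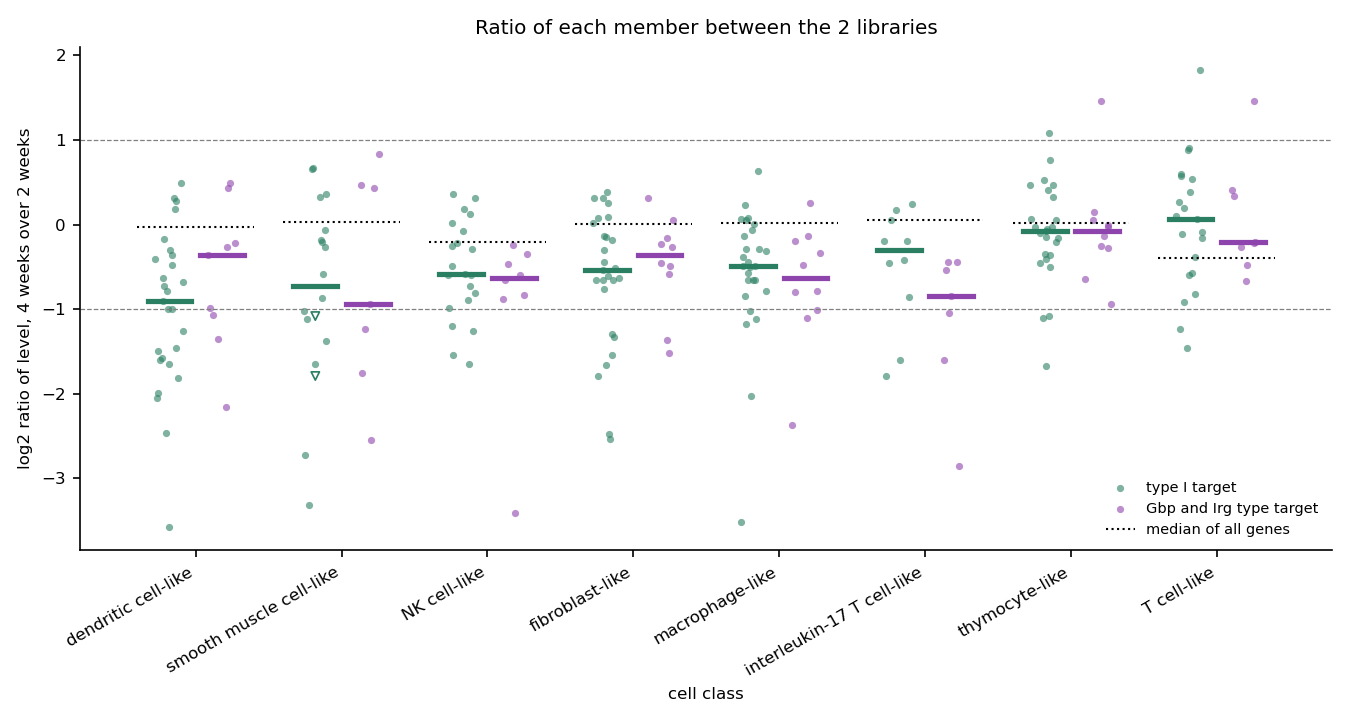
Log2 ratio of level (4 weeks over 2 weeks) of each member with at least 20 UMIs in each compared class, with a heavy line at the median of each list, a dotted line at the median of all genes and dashed lines at 2-fold. Open triangles are members with 0 UMIs in 1 library, drawn at the bound that 3 counts allow. Both medians lie below the dotted line in every class but T cell-like cells, and those of the type I targets run from -0.90 in dendritic cell-like cells to 0.07 in T cell-like cells.

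Dendritic cell-like cells (131 and 172) had the lowest type I median, -0.90 [-1.66 to -0.36], with 23 of 27 below 0. The Gbp and Irg type median was -0.36 [-1.09 to 0.05] over 9 members, Iigp1 having too few UMIs, and that of all genes -0.03. With the libraries clustered separately the class held 100 and 66 cells, and the Gbp and Irg type median was 0.33, with 7 members past 2-fold higher. Whether the class then held the same kinds of cells was not tested, and the share of all genes past 2-fold was not computed for that setting. With the libraries clustered together, 14 members were lower past 2-fold (11 type I and 3 Gbp and Irg type) and none higher, against 5.28% and 3.88% of all genes. All 3 IFIT genes were past 2-fold lower. Ifit1 stood at 35.9 and 8.67 CPM, -2.05 [-2.84 to -1.33], and Ifit3 at 30.4 and 8.67, -1.81. Oasl1 stood at 46.8 and 3.90 CPM, -3.58 [-4.75 to -2.60], and Cmpk2 at 19.1 and 3.47, -2.46. These UMIs were concentrated, since 1 cell held 43.0% of Ifit1, 40.3% of Ifit3, 36.9% of Oasl1 and 45.2% of Cmpk2 UMIs at 2 weeks. With the cell richest in the list left out of each library the type I median was -0.94.

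A few type I targets of the class lay above 0, 4 of 27 in all. Mx1 stood at 41.4 and 50.3 CPM (0.28), Ifi35 at 55.4 and 78.1 (0.49) and Herc6 at 0.18. The others did not. Isg15 stood at 57.7 and 37.3 CPM (-0.63). Irf7 stood at 49.5 and 26.5 CPM (-0.90), but 1 cell held 62.3% of its UMIs at 4 weeks and the ratio without the top cells was -2.06. Of 26 other type I genes, 19 had enough UMIs, with a median of -0.81.

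For the Gbp and Irg type, Gbp2 was higher at 4 weeks (87.2 and 123 CPM, 0.49 [0.22 to 0.76]) and Gbp7 lower (51.8 and 20.4, -1.35 [-1.87 to -0.84]), so neighbours of 1 family had opposite signs. Irf1 was nearly level at 110 and 94.1 CPM (-0.22), unlike in fibroblast-like and macrophage-like cells. Cxcl10 stood at 90.9 and 20.4 CPM, -2.16 [-2.65 to -1.69]. Cxcl9 stood at 83.6 and 39.9 (-1.07), with 53.3% of its UMIs in 1 cell at 2 weeks and -0.58 without the top cells.

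The class joins 2 clusters whose shares differed between times. Cluster 18 (led by genes such as Xcr1) held 106 cells at each time, and cluster 23 (led by Apol7c and Ccl22, known in migrating dendritic cells) 25 at 2 weeks and 66 at 4 weeks. In cluster 18 the medians were -0.75 and -0.94, with 12 of 27 type I targets past 2-fold lower and none higher, where 4.82% and 2.27% of all genes were. In cluster 23 they were 0.15 [-0.54 to 0.79] over 13 type I targets and 0.06 [-0.57 to 0.52] over 4 Gbp and Irg type targets, while the summed type I ratio there was -0.31 [-0.50 to -0.12], of the other sign. Irf1 stood at 88.5 and 41.4 CPM in cluster 18 (-1.09) and at 229 and 212 in cluster 23 (-0.11). Gbp2 stood at 68.1 and 71.0 (0.06) and at 193 and 238 (0.30). The level class value of Irf1 and the higher one of Gbp2 thus went with a larger share of cluster 23, where both genes were higher at each time. The difference between the clusters' ratios was not tested. All 12 immediate early genes were lower in the class (median -0.98), 6 of them past 2-fold, and their part in the result was not tested.

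In NK cell-like cells (145 and 291), the compared class with the most Ifng UMIs, both lists lay below 0. The medians were -0.58 [-1.19 to -0.09] over 21 type I targets and -0.63 [-1.15 to -0.23] over 8 Gbp and Irg type targets, while the median of all genes was itself -0.21. Relative to that median they stood at -0.37 and -0.41. Among the members, 5 were lower past 2-fold (Ifit1, Oas1a, Mx1, Rsad2 and Cxcl10) and none higher, against 8.27% of all genes lower and 3.15% higher. None of them had 50 UMIs, and the class could not be formed under 4 of the other settings. Of these, Rsad2 and Cxcl10 were under a 10th of their highest class. Zbp1 stood at 65.0 and 32.6 CPM, -0.99 [-1.47 to -0.52]. Gbp2 stood at 52.4 and 28.5 (-0.88), Gbp7 at 154 and 86.2 (-0.83), Irf1 at 140 and 88.7 (-0.66) and Bst2 at 191 and 126 (-0.60). Isg15 was again level, at 22.0 and 25.1 CPM (0.19). Cxcl9 had 1 and 3 UMIs. Of the 12 immediate early genes 10 lay below 0 (median -0.68), and their part in the result was not tested.

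Interleukin-17 T cell-like cells (82 and 100) had few counts. Their medians were -0.30 [-1.01 to 0.30] over 10 type I targets and -0.84 [-1.90 to -0.24] over 7 Gbp and Irg type targets, with 5 members lower past 2-fold and none higher, against 5.08% and 5.16% of all genes. The number lower was 1 at a minimum of 50 UMIs and 1 with the libraries clustered separately. Irf7 stood at 36.4 and 10.5 CPM (-1.79), Isg15 at 27.3 and 9.03 (-1.60) and Gbp2 at 65.5 and 31.6 (-1.05). Irf1 stood at 124 and 69.2 CPM (-0.84) and Ifi203 at 313 and 235 (-0.42). This was the only compared class where Isg15 was past 2-fold lower. Ifit3, Cxcl9 and Cxcl10 had at most 6 UMIs in either library.

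T cell-like cells (141 and 627) had a shifted median of all genes, -0.40, with 17.8% of all genes lower and 5.29% higher past 2-fold. Cluster 20 (led by Tox, Cd5 and Lef1) held 106 of the cells at 2 weeks and cluster 6 held 572 at 4 weeks, and depth was 4371 and 7221 UMIs. The members' medians were 0.07 for 21 type I targets and -0.21 for 8 Gbp and Irg type targets, and relative to the median of all genes they stood at 0.47 and 0.18. Among the members, 2 were lower past 2-fold (Ifit1 and Oasl1) and 2 higher (Usp18 and Gbp5). Usp18 stood at 5.87 and 20.9 CPM, 1.83 [0.43 to 3.74], from 4 UMIs at 2 weeks. Bst2 stood at 76.4 and 116 CPM (0.60), Irf1 at 131 and 109 (-0.26), and Isg15 at 13.2 and 14.2. Gbp2 stood at 66.1 and 41.4 (-0.67), which became 0.03 without the cell that held 42.2% of its UMIs at 2 weeks. Within cluster 6 the type I median was -0.85, with 35 cells at 2 weeks, and within cluster 20 it was 0.40 over 4 members, so the class value mixes opposite signs. The median of the immediate early genes was -0.80.

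Thymocyte-like cells (1644 and 828) were low in both lists, with medians of -0.07 over 25 type I targets and -0.08 over 10 Gbp and Irg type targets, beside 0.02 for all genes. Among the members, 3 were lower past 2-fold (Oas1a, Irf7 and Ifi204) and 2 higher (Rtp4 and Gbp5), where 2.37% and 2.55% of all genes were. Irf1, which has known roles in T cell maturation, was level at 85.2 and 85.5 CPM, 0.00 [-0.15 to 0.15]. Bst2 stood at 128 and 125 CPM and Gbp2 at 8.22 and 8.07. Isg15 stood at 5.65 and 9.65 CPM (0.77) and Rtp4, a chaperone of receptors, at 4.47 and 9.48 (1.08 [0.56 to 1.60]), with 29.6% of its UMIs in 1 cell at 4 weeks. For Isg15 it was 25.5%. Oas1a, Irf7, Ifi204, Gbp5, Isg15, Bst2 and Gbp2 were all under a 10th of their highest class here. The immediate early genes had a median of 0.24 in this class.

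Smooth muscle cell-like cells (235 and 87) held the lowest summed levels of the 8 classes, and their ratios were unstable. In all, 11 members were lower past 2-fold and none higher, against 3.61% and 2.49% of all genes. The medians were -0.72 [-2.06 to 0.54] over 18 type I targets and -0.94 [-1.87 to -0.12] over 7 Gbp and Irg type targets, beside 0.03 for all genes. A single cell held 25.1% of the type I UMIs at 2 weeks. Ifit1 stood at 19.4 and 1.94 CPM (-3.32), with 53.6% of its UMIs at 2 weeks in 1 cell, and Ifit3 at 29.2 and 25.3 (-0.21), which became 0.99 without the top cells. Irf1 stood at 41.0 and 17.5 CPM (-1.23), while Gbp2 (16.6 and 22.4, 0.43) and Gbp7 (16.3 and 29.2, 0.84) lay above 0. With the richest cell left out the medians were -0.31 and -0.27, and at another clustering resolution they were 0.77 and 0.31. No direction is therefore given for the lists in this class. The 12 immediate early genes all lay below 0 (median -0.57), and their part in these values was not tested.

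**Figure D4:**
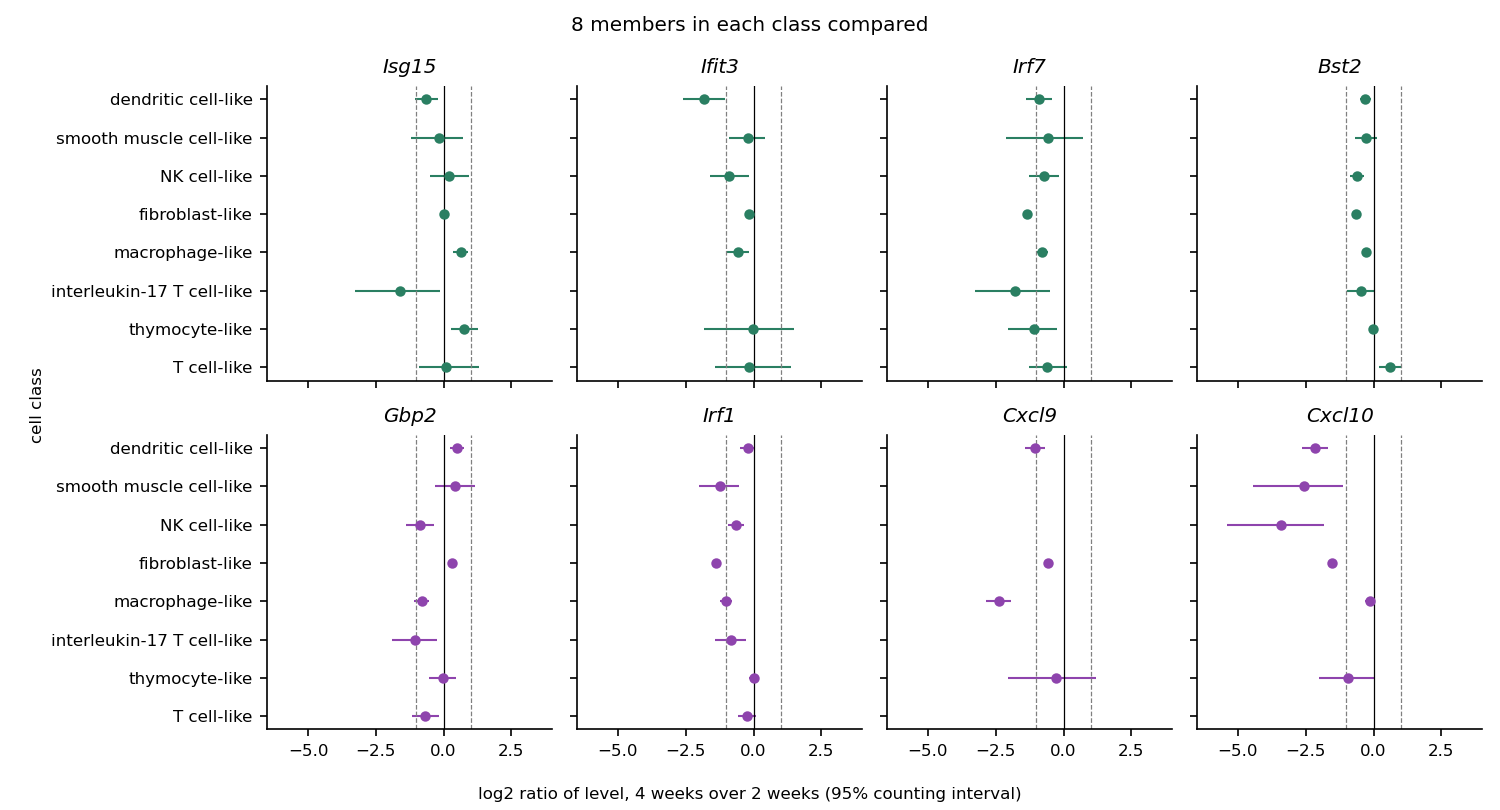
Log2 ratio of level (4 weeks over 2 weeks) of 8 members in each compared class, with bars for the 95% counting interval and dashed lines at 2-fold. Members with fewer than 20 UMIs in a class are not drawn. Irf7 lies below 0 in every class, Irf1 lies lowest in fibroblast-like cells (-1.37), and Gbp2 lies above 0 in dendritic (0.49), smooth muscle (0.43) and fibroblast-like cells (0.32) and below it in macrophage-like cells (-0.80).

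The members were then counted per cell at equal depth, each cell being thinned at random to 2700 UMIs and shallower cells left out. In macrophage-like cells 40.2% [37.3 to 43.2] held at least 5 type I UMIs at 2 weeks and 26.5% [21.2 to 32.3] at 4 weeks, beside 92.0% and 76.3% before thinning (24 and 6 cells left out). In fibroblast-like cells the shares were 28.3% [25.4 to 31.3] and 15.2% [13.8 to 16.6], beside 95.3% and 84.2% (10 and 38 left out). With 162 and 410 fibroblast-like cells near the limit of 5 UMIs, these shares cut a continuous range and mark no cell type. NK cell-like cells had 23.1% and 11.7%, and dendritic cell-like cells 24.0% [16.9 to 32.3] and 18.5% [12.9 to 25.4], whose intervals overlap. In thymocyte-like cells they were 1.41% and 2.06%, with 301 and 342 cells left out.

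Both lists were concentrated in some fibroblast-like cells. The 10% of cells richest in type I UMIs held 35.6% of them at 2 weeks and 35.7% at 4 weeks, and for the Gbp and Irg type targets the share was 54.2% at both, without thinning and over clusters of different size. Such concentration was not particular to this class. In macrophage-like cells the shares were 38.3% and 44.7% for type I and 50.8% and 50.3% for Gbp and Irg type targets. Within fibroblast-like cluster 7 the share was 52.7% and 62.9% for Gbp and Irg type targets. Over the class the thinned sums of the lists had a Pearson correlation of 0.41 and a Spearman correlation of 0.34 over 937 cells at 2 weeks, and 0.32 and 0.25 over 2696 cells at 4 weeks. Cells with at least 5 type I UMIs held a mean of 3.41 Gbp and Irg type UMIs at 2 weeks, against 1.30 in the rest. At 4 weeks the means were 3.12 and 0.852. In macrophage-like cells the correlations were 0.30 and 0.25 over 1077 cells and 0.67 and 0.45 over 257 cells. The cells of a library share its preparation, so these values describe the 2 libraries.

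**Figure D5:**
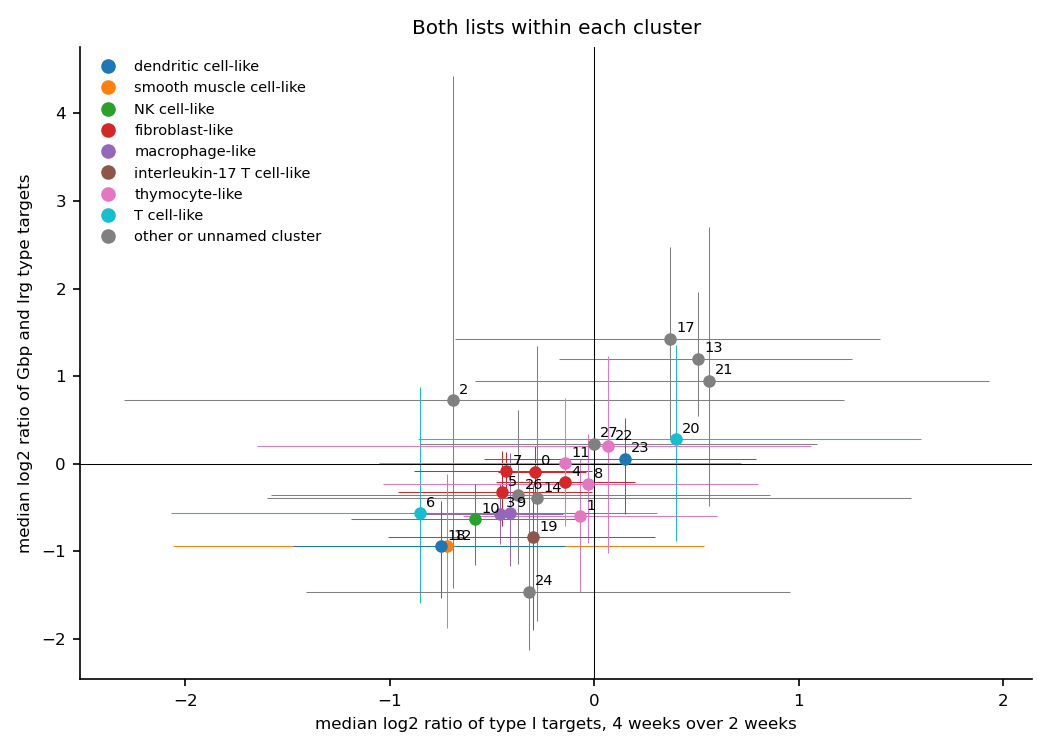
Median log2 ratio (4 weeks over 2 weeks) of the type I targets (horizontal) and of the Gbp and Irg type targets (vertical) in each cluster of 20 or more cells in both libraries, with lines for the medians of the members' 95% bounds and colours for the class. The 4 fibroblast-like and both macrophage-like clusters lie below 0 on both axes. Dendritic cell-like clusters 18 and 23 lie apart (-0.75 and 0.15 for type I targets). Unnamed cluster 13 lies above 0 on both, as do clusters 17, 20, 21, 22 and 23.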

How the data were processed

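Droplet single-cell RNA libraries of injured carotid arteries were analysed, 1 at 2 weeks (IH_2w) and 1 at 4 weeks (IH_4w), grouped by the stage label. The deposited values are raw UMI counts per gene and barcode that, per the file headers, the authors made in Cell Ranger 4.0.0, on mm10, per the submitters' processing notes. Further steps of that processing are not given in the sources used here.

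Cells with fewer than 300 genes or 500 UMIs, or over 10% mitochondrial UMIs, were removed (54 and 73 shallow, 383 and 483 high in mitochondrial UMIs). Doublets were removed by the highest Scrublet-type scores at 0.8% per 1000 barcodes (275 and 587 cells, 4.69% and 6.85%). The score's own threshold would have marked 73 and 261 (1.24% and 3.05%). Both libraries were clustered together (Scanpy 1.11.5, 2000 variable genes without 15 interferon genes, 30 components, Leiden resolution 1). Clusters were named from 27 marker lists, and the scoring rule, the grouping into classes and the exclusion of 1 cartilage-like cluster were chosen after the clusters were seen. Class names are rebuilt and may differ from the authors'. Per class, UMIs were summed to CPM with exact Poisson intervals. Ratios have exact conditional binomial intervals and shares have Clopper-Pearson intervals (SciPy 1.17.1), all at 95% and for counting error only. The ratio and interval code was tested on simulated data. Sequence motifs were searched in RefSeq promoter windows of GRCm38.p6.

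The members and lists were chosen with earlier results of these data known. Isg15, Ifit3, Irf7, Bst2, Gbp2, Irf1, Cxcl9 and Cxcl10 were named in every class, with up to 3 members of each list of the largest ratio among those with at least 50 UMIs and at least a 10th of their highest class level. Other members named, among them those past 2-fold, level or of opposite sign, were picked after their values were seen. Members whose RNA is nearly the same as that of a paralog (Ifit3 with Ifit3b, Oas1a with Oas1g, Trim30a with Trim30d, Ifi203 and Ifi204 within their family) have uncertain counts. Alternatives covered clustering, cell filters, the UMI minimum, weighting of cells and clusters, single rich cells, list definitions and centring.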

Additional observations from a re-analysis of the deposited data

Results flagged for a closer look

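The log2 ratio of Rtp4 (4 weeks over 2 weeks) was -1.46 in dendritic cell-like cells and 1.08 in thymocyte-like cells, past 2-fold in opposite directions. In dendritic cell-like cells the level was 32.3 CPM at 2 weeks and 11.7 at 4 weeks, and in thymocyte-like cells 4.47 and 9.48. A single cell held 29.6% of the Rtp4 UMIs at 4 weeks in each of the classes. The difference between the classes was not tested, since each time is 1 library.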

How the results depend on the processing

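No paired analysis was possible because each time is 1 library without replicate numbers, and for the same reason no replicate could be left out. Of 190 alternative values of the lists' medians 174 kept their sign and 178 stayed within the counting range. So did 9 of 13 ratios of shares and 412 of 460 ratios of named genes. Of 116 counts of members past 2-fold, 88 were equal to the reported count or within a fixed small factor of it. No counting range was used for these counts. In fibroblast-like cells the type I median was -0.37 with clusters weighted equally (from -0.54), and the Gbp and Irg type median -0.18 so weighted and -0.23 with the GTPases alone (from -0.36). In macrophage-like cells 5 members in place of 8 were lower with interferon genes kept in clustering. In thymocyte-like cells 1 in place of 2 was higher without doublet removal or at 50 UMIs per member.

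Smooth muscle cell-like medians turned to 0.77 and 0.31 at Leiden resolution 2 and to 1.00 and -0.06 with libraries clustered separately (Gbp and Irg type 0.43 for GTPases alone). There 1 and 2 members were lower in place of 11, 6 at 50 UMIs, and 4 and 5 higher in place of 0, 1 with no minimum. With separate clustering the dendritic cell-like class held 100 and 66 cells, its Gbp and Irg type median was 0.33 and 7 members were higher in place of 0. NK cell-like members lower past 2-fold were 0 at 50 UMIs and 10 with no minimum, in place of 5.

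In T cell-like cells the Gbp and Irg type median was -0.97 at 20% mitochondrial UMIs. Members lower, 2 as reported, were 5 at resolution 2, 4 with separate clustering, 7 without doublet removal, 13 at 20% mitochondrial UMIs, 1 at 50 UMIs, 6 with no minimum and 1 when centred on the median of all genes, and members higher were 1 without doublet removal, 1 at 50 UMIs and 4 when centred, in place of 2. In interleukin-17 T cell-like cells the Gbp and Irg type median was -0.24 without doublet removal and -0.23 at 20% mitochondrial UMIs, the members lower were 1 with separate clustering, 2 without doublet removal, 2 at 20% mitochondrial UMIs, 1 at 50 UMIs and 10 with no minimum in place of 5, and 1 was higher with no minimum. The log2 ratio of the share of cells rich in type I UMIs was -0.45 in fibroblast-like cells at 3 UMIs, 1.28 and -2.03 in T cell-like cells at 3 and 10 UMIs, and -1.33 in dendritic cell-like cells at 10 UMIs. The causes were not tested. Centring was chosen after seeing the data.

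The NK cell-like class could not be compared at resolution 2, with separate clustering, without doublet removal or at 20% mitochondrial UMIs, nor the dendritic cell-like class in the last 2. A ratio of shares could not be given for smooth muscle cell-like cells, where no cell passed at 4 weeks, or at 10 UMIs for interleukin-17 T cell-like cells. Depth limits members under 20 UMIs, of which there were 12 in smooth muscle and 20 in interleukin-17 T cell-like cells.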

Other observations

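Unnamed cluster 13 (led by Pex5l, Dio2 and Rbp4; 137 and 183 cells) went the other way from the fibroblast-like clusters, with a median log2 ratio of 1.20 [0.55 to 1.96] over 10 Gbp and Irg type targets, 6 of them past 2-fold higher, where 2.18% of all genes were. Over 20 type I targets the median was 0.51, with a range that covered 0 (-0.17 to 1.26). Gbp2 stood there at 30.7 CPM at 2 weeks and 103 at 4 weeks (1.75 [1.31 to 2.20]), with 49.1% of its UMIs at 4 weeks in 1 cell. Cxcl9 stood at 1.11 and 127 CPM, and all of its UMIs at 4 weeks lay in 1 cell. A single cell held 50.8% of the cluster's Gbp and Irg type UMIs at 4 weeks. Irf1 was lower in the same cluster (119 and 61.9 CPM, -0.94). Cluster 13 was not alone above 0 for both lists. In neutrophil-like cluster 17 (206 and 29 cells) the medians were 0.37 for type I and 1.43 for Gbp and Irg type targets, beside -0.53 for all genes. Clusters 20, 21, 22 and 23 also had both medians above 0.

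Endothelial cell-like cells, too few to be compared (41 and 24), had the highest Irf1 level of the named classes at 2 weeks, 410 CPM, and 150 CPM at 4 weeks. Their Iigp1 stood at 328 and 238 CPM. Their Cxcl10 stood at 326 and 132 CPM, with 76.7% of the UMIs at 4 weeks in 1 cell. In neutrophil-like cells all 12 UMIs of Gbp5 at 4 weeks came from 1 of 29 cells.

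Single cells rich in a member recurred. At 4 weeks 1 cell held at least 25.0% of a member's UMIs in many cases, of which some follow. Among them were Cxcl9, Isg15, Rsad2 and Ifi44 in macrophage-like cells and Cxcl9 in fibroblast-like cells. Irf7, Ifit3, Ifit1, Cxcl9 and Oasl1 in dendritic cell-like cells and Rtp4 and Isg15 in thymocyte-like cells were others.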
